A study of Mus musculus with 13 samples.

Results

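Stavudine (STV) was compared with no stavudine across all mammary tumors of the series. The question is what differed in the tumor transcriptome with the drug, whether or not the tumor had recurred. All 11 tumors of the 13 libraries entered, 5 on stavudine and 6 without, with the tumor state (primary or recurrent) as a term of the model. The 2 cancer-free mammary glands were left out because neither mouse drank the drug. All mice were females of the strain FVB/N-TgN (MMTV-HER2/neu), line 202Mul/J, which carry rat HER2/Neu cDNA driven by the mouse mammary tumor virus promoter and develop breast tumors without further treatment, although the genotype field of the labels reads wild type. Of the 5 stavudine tumors, 3 were primary tumors of mice that drank water with 1 mg/mL of the drug (primary stavudine) and 2 had regrown under 17-DMAG at 20 mg/kg in mice on the same water (recurrent 17-DMAG plus stavudine). The 6 others were 3 primary tumors of untreated mice (primary untreated) and 3 that had regrown under 17-DMAG alone (recurrent 17-DMAG). Control mice drank the same sterile water without the drug, and 17-DMAG was injected 3 times a week. Stavudine began either at 2 months of age or once a primary tumor had appeared. The paper describes the primary stavudine tumors as ones that developed in mice on the drug, and its later start came with 17-DMAG. The labels give neither the start of the drug nor the age at collection, so the 2 recurrent stavudine tumors may have had either start. Every recurrent tumor had met 17-DMAG and no primary tumor had, so recurrence and 17-DMAG cannot be told apart.

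Stavudine is a thymidine analogue and a nucleoside reverse transcriptase inhibitor. Cells phosphorylate it with the enzymes of thymidine salvage, and the triphosphate ends the growing strand when a reverse transcriptase adds it, which holds for HIV and for the LINE-1 (L1) retrotransposon. It is also known to inhibit polymerase gamma, the polymerase of mitochondrial DNA. Reverse transcribed DNA in the cytosol can be sensed by cGAS, whose product activates STING and, downstream of it, type I interferon and NF-kB target genes. 17-DMAG inhibits the chaperone HSP90, and HSP90 inhibition is known to release the factor HSF1 and to induce heat shock genes.

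Library totals of the tumors ran from 39921388 to 49484412 counts, the rRNA precursor Rn45s took 4.70 to 7.98% of them, and TMM normalization factors lay between 0.934 and 1.03. Tissue carried along differed between tumors and did not follow the drug. Skeletal muscle genes took 0.417% of counts in primary untreated replicate 1, 0.144% in recurrent 17-DMAG replicate 3 and 0.545% in recurrent 17-DMAG plus stavudine replicate 2, against at most 0.0427% in the other 8 tumors. The luminal epithelial markers, which include the tumor oncogene Erbb2, were present in all tumors at 0.765 to 2.28% of counts. In bulk samples, fewer cells of a type and less RNA per cell cannot be told apart. Leukocyte and macrophage markers were highest in recurrent 17-DMAG replicate 1.

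No gene was called for stavudine. edgeR's quasi-likelihood test found 0 of 16870 genes (0%) at an adjusted p under 0.05, and the smallest adjusted p was 0.383, for Lurap1l. The next smallest was 1.00. Before adjustment, 246 genes that were higher on stavudine (1.46% of those tested) and 325 that were lower (1.93%) had a p under 0.05, 571 (3.38%) together. DESeq2, the tool of the study's methods, called 6 genes (0.0356%) on the same counts, 3 higher (Lurap1l, Tas1r1 and Dkkl1) and 3 lower (4930523C07Rik, Mid1 and Fam118a). limma voom called 0, with 557 genes past 0.05 before adjustment.

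The precision of the comparison was limited by 11 tumors but was not poor for most genes. The 95% interval of the stavudine difference lay within 1 log2 unit (a 2-fold change) either way for 11339 genes (67.2%), and the median standard error was 0.21 on the log2 scale. For those genes a common change of 2-fold or more over both states lies outside the interval. It does not bound the change within 1 state, and Tkt, which is among them, was at 1.17 within recurrent tumors. The median difference over all genes was -0.02, with 7770 genes higher and 9100 lower on stavudine. The biological coefficient of variation between tumors was 0.415.

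Of the 16870 genes tested, the expression of all 5 stavudine tumors lay above that of all 6 others for 18 and below it for 19. A more lenient reading asks for no overlap within each state, in the same direction. This held for 55 higher genes (0.326% of those tested) and 64 lower genes (0.379%), 119 together. For more genes, 280 of the 16870, the groups did not overlap in either state but the directions were opposite. Separation of the groups by a single gene, as given below, is thus a description and was not tested.

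Lurap1l, which encodes a protein related to a leucine-rich adaptor, had the smallest p among the higher genes (chromosome 4, 80910646 to 80955628, GRCm38). It was at 22.7, 18.3 and 21.3 CPM in primary untreated, 28.8, 32.5 and 30.05 in primary stavudine, 32.8, 30.2 and 29.6 in recurrent 17-DMAG and 49.6 and 55.8 in recurrent 17-DMAG plus stavudine tumors. Within each state the stavudine tumors were above the others without overlap, and the levels of primary stavudine and recurrent 17-DMAG tumors ran into each other. The log2 difference was 0.65 (SE 0.09), 0.55 within primary and 0.77 within recurrent tumors (edgeR adjusted p = 0.383, DESeq2 adjusted p = 1.04e-07, range over the alternatives tried 1.04e-07 to 1.00). DESeq2 called it in 11 of 11 fits that each left out 1 tumor.

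Tas1r1, a subunit of the umami taste receptor (chromosome 4, 152027914 to 152038568), was at 2.91, 1.55 and 2.14 CPM in primary untreated, 3.51, 4.801 and 4.17 in primary stavudine, 2.59, 3.32 and 2.88 in recurrent 17-DMAG and 5.48 and 5.502 in recurrent 17-DMAG plus stavudine tumors. All 5 stavudine tumors lay above all 6 others, by a narrow margin, at levels of a few CPM. The log2 difference was 0.91 (SE 0.20), and it was 0.92 in primary and 0.90 in recurrent tumors (edgeR adjusted p = 1.00, DESeq2 adjusted p = 0.00819). Leaving out 1 tumor at a time, DESeq2 called it in 6 of 11 fits.

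Dkkl1, whose product resembles the Dickkopf inhibitors of Wnt signaling (chromosome 7, 45207519 to 45212147), had the largest difference of the 6 genes that DESeq2 called. It was at 6.56, 0.9803 and 2.72 CPM in primary untreated, 14.1, 36.96 and 23.3 in primary stavudine, 11.05, 15.8 and 11.6 in recurrent 17-DMAG and 49.6 and 23.02 in recurrent 17-DMAG plus stavudine tumors. The spread within groups was wide, yet the groups did not overlap within either state. The log2 difference was 2.27 (SE 0.50), 2.86 in primary and 1.501 in recurrent tumors (edgeR adjusted p = 1.00, DESeq2 adjusted p = 0.00819), and 9 of the 11 fits without 1 tumor kept the DESeq2 call.

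4930523C07Rik (chromosome 1, 160044382 to 160080208), annotated as protein coding, was the gene with the smallest p among the lower ones. It was at 23.5, 26.2 and 28.6 CPM in primary untreated, 17.4, 13.8 and 19.3 in primary stavudine, 21.9, 23.99 and 22.8 in recurrent 17-DMAG and 9.26 and 5.57 in recurrent 17-DMAG plus stavudine tumors. All 5 stavudine tumors lay below all 6 others, and the recurrent pair was lowest. The log2 difference was -1.06 (SE 0.22), -0.63 in primary and -1.63 in recurrent tumors (edgeR adjusted p = 1.00, DESeq2 adjusted p = 0.0152). It overlaps 4930562F07Rik on the other strand, and since the strand setting of the counting is not stated, reads of the pair cannot be told apart.

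Mid1, a microtubule-associated ubiquitin ligase of the X chromosome (chromosome X, 169685199 to 170005736), was at 36.1, 34.7 and 31.98 CPM in primary untreated, 17.5, 10.96 and 11.2 in primary stavudine, 40.6, 34.2 and 12.8 in recurrent 17-DMAG and 13.8 and 13.8 in recurrent 17-DMAG plus stavudine tumors. Of the 6 tumors without stavudine, 5 were at 32.0 CPM or above and recurrent 17-DMAG replicate 3 was among the stavudine tumors. The log2 difference was -1.24 (SE 0.27), with an edgeR adjusted p of 1.00 and a DESeq2 adjusted p of 0.0278. Without recurrent 17-DMAG replicate 3 the difference was -1.40 and the edgeR adjusted p 0.0528, the lowest that any gene had for the stavudine difference under an edgeR alternative. Mid1 overlaps 4933400A11Rik and G530011O06Rik on the other strand. Fam118a (chromosome 15, 85028948 to 85062830) was at 17.5, 23.6 and 22.4 CPM in primary untreated, 14.4, 13.1 and 17.4 in primary stavudine, 16.4, 18.5 and 15.95 in recurrent 17-DMAG and 10.8 and 11.4 in recurrent 17-DMAG plus stavudine tumors. Its groups did not overlap within either state, and the log2 difference was -0.55 (SE 0.12) (edgeR adjusted p = 1.00, DESeq2 adjusted p = 0.0278). Of the 11 DESeq2 fits without 1 tumor, 6 called 4930523C07Rik, 5 Mid1 and 3 Fam118a.

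**Figure D1:**
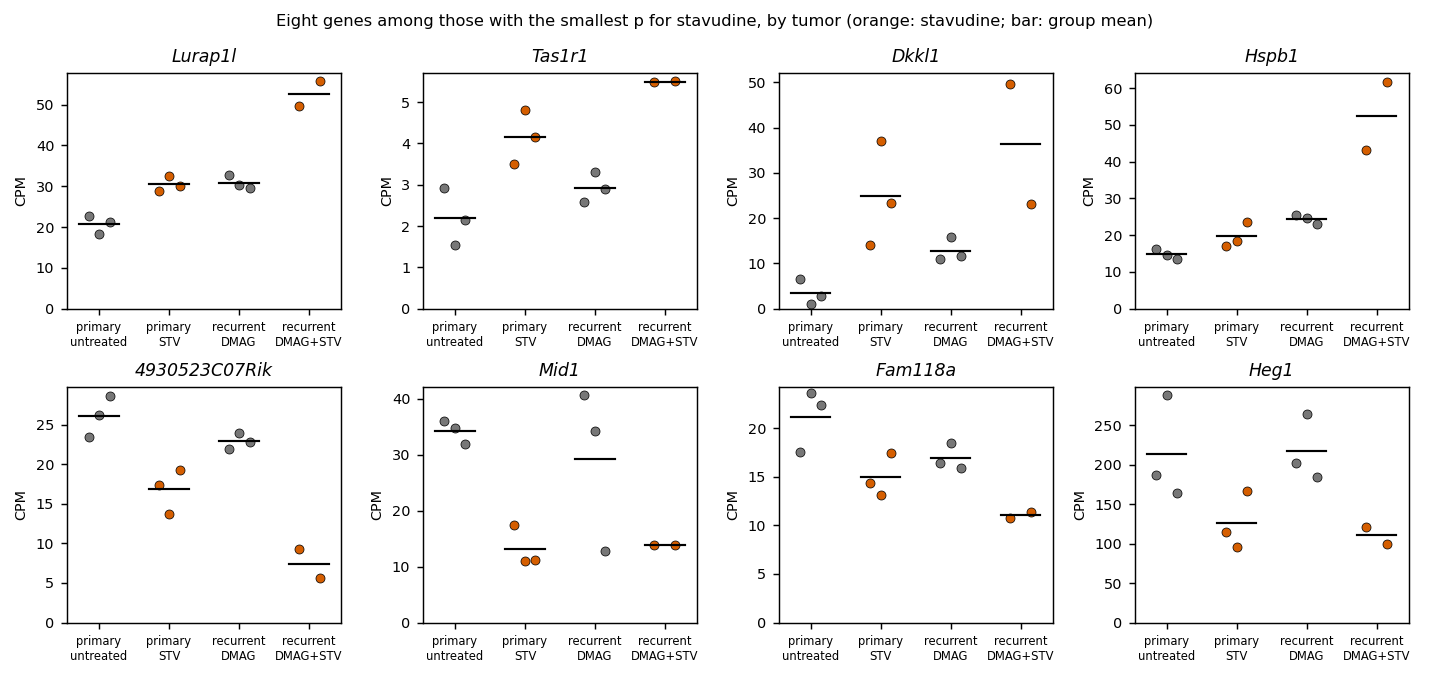
CPM (vertical axes, starting at 0) of 4 genes that were higher and 4 that were lower on stavudine, by tumor group, with stavudine tumors in orange and the others in grey. Each point is a tumor and each bar the group mean. Tas1r1 and 4930523C07Rik separate all 5 stavudine tumors from all 6 others, and for Mid1 recurrent 17-DMAG replicate 3, at 12.8 CPM, lies with the stavudine tumors.

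The other higher genes of the 10 with the smallest p had log2 differences of 0.72 to 2.94. Hspb1 encodes the small heat shock protein HSP27 and was at 16.2, 14.7 and 13.5 CPM in primary untreated, 17.02, 18.3 and 23.7 in primary stavudine, 25.4, 24.8 and 23.1 in recurrent 17-DMAG and 43.2 and 61.6 in recurrent 17-DMAG plus stavudine tumors. It separated the groups within both states, by 0.41 in primary and 1.10 in recurrent tumors. Stambpl1, a deubiquitinating enzyme related to AMSH, differed by 0.72 (SE 0.16) and also separated the groups within both states. Irak3, an inhibitory kinase of Toll-like receptor signaling, differed by 0.73 (SE 0.19), and Hacd4, an enzyme of very long chain fatty acid elongation, by 1.03 (SE 0.24). Adra2c, an alpha-2 adrenergic receptor, differed by 1.95 (SE 0.55).

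Cck, the gene of the peptide hormone cholecystokinin, had the largest difference of these genes at 2.94 (SE 0.75), but it was at 1.41, 1.44 and 0.637 CPM in primary untreated, 2.26, 27.4 and 1.23 in primary stavudine, 1.64, 1.14 and 3.88 in recurrent 17-DMAG and 11.96 and 16.8 in recurrent 17-DMAG plus stavudine tumors. Primary stavudine replicate 3 overlapped the untreated tumors, replicate 1 was less than 1 CPM above the highest of them, and without primary stavudine replicate 2 the difference was 1.73. The last of the higher genes, Gm15663, is a processed transcript that overlaps Tmtc2 on the other strand and differed by 0.78 (SE 0.21). Hacd4 overlaps Focad and Irak3 overlaps Tmbim4 in the same way.

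Among the lower genes, Heg1, a transmembrane protein that acts with the CCM complex in endothelial junctions, was at 187, 288 and 164 CPM in primary untreated, 114, 96.2 and 167 in primary stavudine, 202, 264 and 184 in recurrent 17-DMAG and 121 and 99.7 in recurrent 17-DMAG plus stavudine tumors. Its difference was -0.85 (SE 0.19), and primary stavudine replicate 3, at 167 CPM, lay within the range of the untreated tumors. Uaca, an apoptosis-related protein with ankyrin repeats, differed by -0.41 (SE 0.09) and placed all 5 stavudine tumors below all 6 others, at 46.0 to 62.7 CPM against 64.6 to 85.2 CPM. Rcn1 and Ppib, a calcium-binding protein and a peptidyl-prolyl isomerase of the endoplasmic reticulum, differed by -0.59 (SE 0.14) and -0.40 (SE 0.10). Aif1l, an actin-bundling protein, differed by -1.35 (SE 0.35), and without primary untreated replicate 2, which had 112 CPM, by -0.97. Lekr1 and Vstm5 differed by -0.78 (SE 0.19) and -0.83 (SE 0.22). All of these lower genes had an edgeR adjusted p of 1.00.

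The higher genes were not spread evenly over the chromosomes, a pattern that was noticed in the results and carries no test. Of the 55 genes that were higher without overlap in both states, 20 lay on chromosome 4, which holds 1043 (6.24%) of the 16714 tested genes that could be placed. Of the 246 higher genes with an unadjusted p under 0.05, 70 lay there, against 7 of the 325 lower ones. The 64 lower genes without overlap included 18 on chromosome 2, which holds 7.81% of the placed genes. Lurap1l, Tas1r1 and Hacd4 are on chromosome 4, and Rcn1 and Aif1l are on chromosome 2. Cmpk1, Uqcrh, Isg15 and Dnaja1, named below, are also on chromosome 4.

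The median stavudine difference over the chromosome 4 genes was 0.18, with 75.9% of them higher, and the medians of the other chromosomes lay between -0.09 and 0.03. Within primary tumors the chromosome 4 median was 0.34 and within recurrent tumors it was -0.0016. To see which tumors set this, each gene's log2 CPM was taken relative to its median over the 11 tumors, and the median of these deviations was taken over the 788 chromosome 4 genes whose mean log2 CPM reached 1. It was 0.038, -0.76 and -0.22 in primary untreated, 0.037, 0.031 and 0.046 in primary stavudine, -0.16, 0.024 and 0.043 in recurrent 17-DMAG and 0 and 0 in recurrent 17-DMAG plus stavudine tumors. Primary untreated replicate 2 thus stood 0.76 below, and its deviation lay between -0.88 and -0.69 in all 8 stretches of 20 Mb along the chromosome. Primary untreated replicate 3 was at 0.03 and 0.17 in the first 40 Mb and between -0.33 and -0.22 from there to the end.

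Recurrent 17-DMAG replicate 1 passed 0.2 on 4 chromosomes, from -0.26 on chromosome X to 0.21 on chromosome 6. A deviation of more than 0.2 either way on any chromosome occurred in these 3 tumors and in none of the 5 stavudine tumors. On chromosome 2 the deviations were 0, 0.07 and 0.10 in primary untreated, 0, -0.0098 and -0.014 in primary stavudine, 0.14, -0.018 and 0 in recurrent 17-DMAG and 0 and -0.02 in recurrent 17-DMAG plus stavudine tumors, so the same 3 tumors were the highest. The number of chromosome copies was not measured, and its part in the result was not tested.

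With the median of each chromosome in each tumor entered as an offset, edgeR called 0 genes with 548 past 0.05 before adjustment, and Lurap1l differed by 0.44 in place of 0.65 (adjusted p = 1.00), Tas1r1 by 0.73 in place of 0.91 and Hacd4 by 0.82 in place of 1.03. On other chromosomes, Dkkl1 differed by 2.29 in place of 2.27 and 4930523C07Rik by -1.03 in place of -1.06. Without the 3 deviating tumors, 0 genes were called, 801 had an unadjusted p under 0.05, and the difference of Lurap1l was 0.64 (adjusted p = 0.892). Rcn1 then differed by -0.28 in place of -0.59, and Aif1l by -0.76 in place of -1.35. Dkkl1 differed by 1.61 and Tas1r1 by 0.68 without these tumors, each its lowest value under any alternative, and 4930523C07Rik by -1.19.

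**Figure D2:**
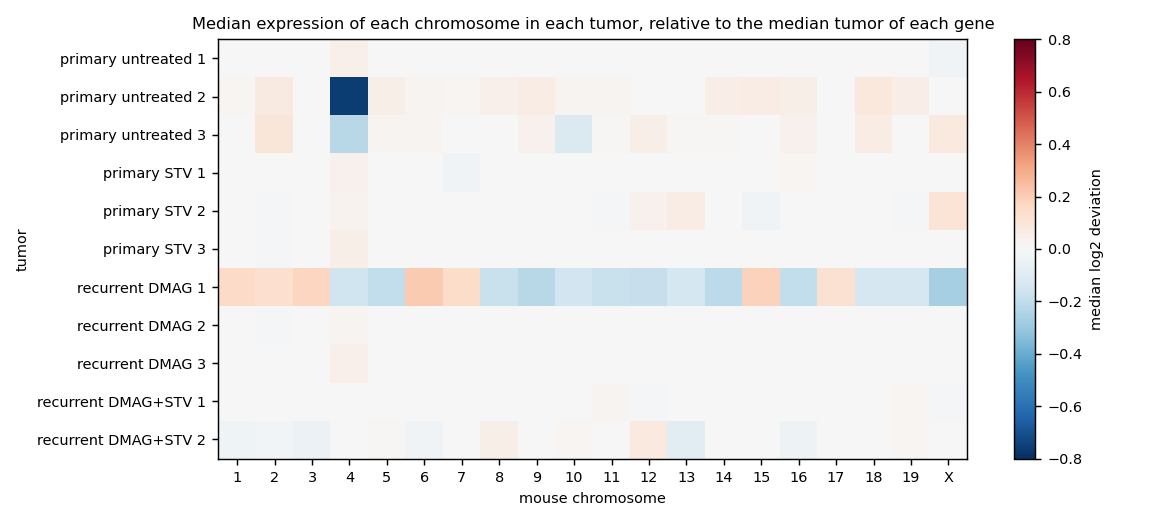
Median log2 deviation of the genes of each chromosome (horizontal axis) from the median tumor, in each of the 11 tumors (vertical axis), with blue for lower and red for higher. Chromosome 4 is at -0.76 in primary untreated replicate 2 and at -0.22 in primary untreated replicate 3, and recurrent 17-DMAG replicate 1 passes 0.2 on 4 chromosomes, while the 5 stavudine tumors stay within 0.11 of 0.

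The stavudine effect was next compared between the states. The effect within primary tumors (3 against 3) and that within recurrent tumors (2 against 3) share no library. They had the same sign for 7682 of 16870 genes (45.5%), and across genes Pearson's r was -0.15 and Spearman's rho -0.11, where genes are not independent replicates. Before adjustment, 634 genes (3.76%) passed 0.05 within primary tumors and 1323 (7.84%) within recurrent tumors. The difference of the effects was called for 0 genes by edgeR (0%), while 1322 genes (7.84%) passed 0.05 before adjustment and the lowest adjusted p was 0.435. DESeq2 called 189 genes (1.12%) in this test, 68 with a higher and 121 with a lower effect in recurrent tumors. The 2 fits without a recurrent 17-DMAG plus stavudine tumor leave 1 tumor in that group, so their calls are not given. Of the other fits without 1 tumor, edgeR called 1 gene without recurrent 17-DMAG replicate 1 and 0 in the rest.

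**Figure D3:**
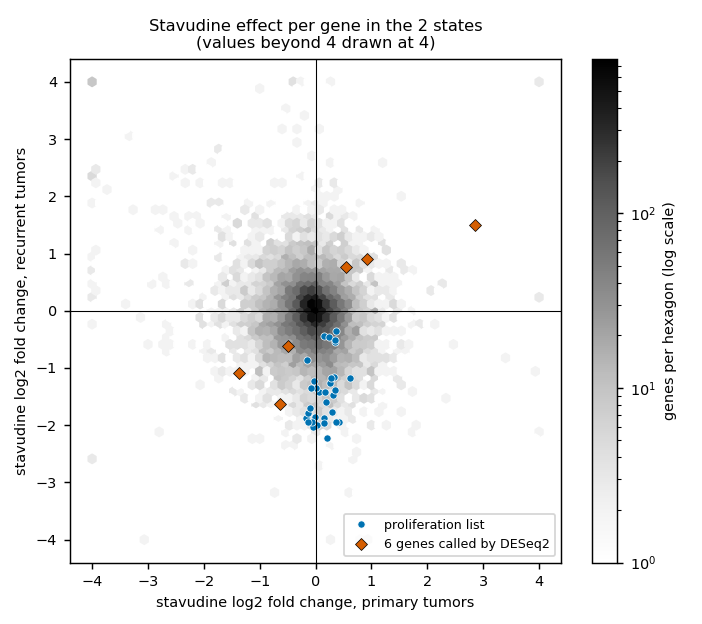
Log2 fold change on stavudine within primary tumors (horizontal axis) and within recurrent tumors (vertical axis) for 16870 genes, as counts per hexagon in grey on a log scale, with values beyond 4 drawn at 4. Proliferation genes (blue) lie near 0 in primary tumors and below 0 in recurrent tumors. The 6 genes called by DESeq2 (orange) have the same sign in both, which their choice by the effect over both states favors.

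The proliferation list, 32 genes of the cell division cycle, showed the largest contrast between the states among the functional lists. Mki67, the gene of the Ki-67 antigen, was at 448, 368 and 460 CPM in primary untreated, 327, 506 and 440 in primary stavudine, 552, 530 and 532 in recurrent 17-DMAG and 209 and 88.7 in recurrent 17-DMAG plus stavudine tumors. The recurrent stavudine pair was below all other tumors, and primary tumors with and without the drug overlapped. The log2 difference of Mki67 was -0.0041 in primary and -1.85 in recurrent tumors, and -0.79 (SE 0.37) over all tumors (edgeR adjusted p = 1.00). For the difference between states the adjusted p was 0.435 by edgeR and 0.00949 by DESeq2. Without recurrent 17-DMAG plus stavudine replicate 1, which leaves 1 tumor in that group, the difference between states was -2.63 in place of -1.85. Without replicate 2 of that group the difference over all tumors was -0.39 in place of -0.79.

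Over the list, 31 of 32 genes were lower on stavudine with a median of -0.57, beside -0.02 over all genes. Of the 32, 5 had an unadjusted p under 0.05 with a lower value, beside 1.93% of all genes. Within primary tumors 22 of 32 were higher with a median of 0.16, and within recurrent tumors 32 of 32 were lower with a median of -1.45. The difference between states had an unadjusted p under 0.05 for 28 of the 32 genes, beside 7.84% of all genes, and edgeR called it for 0. DESeq2 called it for 16 of the 32, all with a lower effect in recurrent tumors, beside 1.12% of all genes. Plk1, Bub1b and Cenpa, which act in mitotic entry, the spindle checkpoint and the centromere, were at -0.84, -0.90 and -0.86 over all tumors and at -1.79, -1.87 and -1.94 in recurrent tumors. The replication licensing genes Mcm2, Mcm3, Mcm5 and Mcm6 were closer to 0 over all tumors, at -0.11, -0.07, 0.05 and -0.04. They too were lower in recurrent tumors, as all 32 genes of the list were.

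The mean log2 CPM of the list was 5.02, 4.51 and 4.79 in primary untreated, 4.64, 5.12 and 5.00 in primary stavudine, 5.43, 5.19 and 5.30 in recurrent 17-DMAG and 4.31 and 3.26 in recurrent 17-DMAG plus stavudine tumors. Recurrent 17-DMAG plus stavudine replicate 2 was the lowest, and it is also the tumor with the most skeletal muscle RNA. Without it the median of the list over all tumors was -0.21, with 25 of 32 genes lower, and without all 3 tumors rich in muscle RNA it was -0.20, with 21 of 32 lower. Without the 3 tumors with deviating chromosomes it was -0.88, with 32 of 32 lower. The part of the muscle RNA in the result was not tested beyond this.

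No gene of thymidine salvage or dNTP supply had an unadjusted p under 0.05. Thymidine kinase is the enzyme that takes up stavudine into the salvage pathway, Tk1 in the cytosol of dividing cells and Tk2 in mitochondria. Tk1 was at 32.6, 23.8 and 28.4 CPM in primary untreated, 26.6, 29.9 and 31.9 in primary stavudine, 46.5, 35.8 and 37.96 in recurrent 17-DMAG and 29.6 and 21.1 in recurrent 17-DMAG plus stavudine tumors. Its difference was -0.26 (SE 0.17), 0.06 in primary and -0.66 in recurrent tumors, where both stavudine tumors were below the others. Tk2 differed by 0.02 (SE 0.18) (95% interval -0.37 to 0.41), deoxycytidine kinase Dck by 0.02 (SE 0.25), and the nucleoside transporter Slc29a1 (ENT1) by -0.36 (SE 0.31). Tk1 overlaps Afmid.

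Dtymk, the thymidylate kinase of the next phosphorylation step, was at 26.7, 25.9 and 24.1 CPM in primary untreated, 27.2, 28.5 and 28.3 in primary stavudine, 28.1, 23.8 and 26.5 in recurrent 17-DMAG and 20.4 and 22.5 in recurrent 17-DMAG plus stavudine tumors. It separated the groups in both states but in opposite directions, by 0.13 in primary and -0.29 in recurrent tumors, and the difference between states was not called (edgeR adjusted p = 0.600). Rrm1 and Rrm2, the subunits of ribonucleotide reductase, differed by -0.26 (SE 0.17) and -0.24 (SE 0.11), and Cmpk1, a nucleoside monophosphate kinase, by 0.25 (SE 0.12). Cmpk1 is on chromosome 4 and was at 64.9, 40.3 and 56.9 CPM in primary untreated tumors. The list had 10 of 25 higher and 15 lower on stavudine, with a median of -0.05.

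Genes that keep mitochondrial DNA differed little between the groups. Polg, the catalytic subunit of polymerase gamma, was at 53.6, 51.5 and 46.1 CPM in primary untreated, 52.9, 46.2 and 51.8 in primary stavudine, 59.5, 51.5 and 51.1 in recurrent 17-DMAG and 50.1 and 47.9 in recurrent 17-DMAG plus stavudine tumors. Its difference was -0.06 (SE 0.08) with a 95% interval of -0.24 to 0.11. Peo1 (Twnk), the mitochondrial helicase, differed by -0.09 (SE 0.09) and Tfam, which packages mitochondrial DNA and starts its transcription, by 0.19 (SE 0.13). The 25 genes of mitochondrial DNA maintenance had 17 of 25 higher and 8 lower, with a median of 0.03 and 0 at an unadjusted p under 0.05, and all 25 intervals lay within 1 log2 unit. Polg overlaps Fanci and Peo1 overlaps Mrpl43.

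The nuclear genes of the respiratory chain, 52 in all, also lay close to 0. They had 15 of 52 higher and 37 lower, with a median of -0.05, a range of -0.21 to 0.34 and 0 at an unadjusted p under 0.05. All 52 intervals lay within 1 log2 unit. Cox5b and Cox6a1, subunits of cytochrome c oxidase, differed by -0.14 (SE 0.08) and -0.18 (SE 0.09), and Uqcrh of complex III by 0.34 (SE 0.17). Uqcrh is on chromosome 4 and was at 86.7, 48.0 and 73.5 CPM in primary untreated tumors. In primary tumors 41 of 52 were lower (median -0.10) and in recurrent tumors 27 of 52 (median -0.01). Transcripts encoded by mitochondrial DNA itself were not analysed here.

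The sensors of cytosolic nucleic acids were next. Mb21d1 (Cgas), which encodes cGAS, was at 7.21, 5.64 and 6.58 CPM in primary untreated, 6.48, 7.14 and 8.99 in primary stavudine, 6.89, 5.94 and 8.85 in recurrent 17-DMAG and 7.04 and 5.03 in recurrent 17-DMAG plus stavudine tumors. The groups overlapped in both states and the difference was 0.01 (SE 0.19). Tmem173 (Sting1), the gene of STING, differed by -0.09 (SE 0.25), and recurrent 17-DMAG plus stavudine replicate 1, at 38.4 CPM, stood above the other 4 stavudine tumors. Trex1, a nuclease that degrades cytosolic DNA and shares its locus with Atrip, and Samhd1, which hydrolyzes dNTPs, differed by 0.03 (SE 0.18) and -0.13 (SE 0.22). Over the list, 11 of 24 higher and 13 lower were found, with a median of -0.08 and 0 at an unadjusted p under 0.05.

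Type I interferon target genes varied widely among tumors of a group. Isg15, a ubiquitin-like protein induced by interferon, was at 7.85, 1.503 and 6.73 CPM in primary untreated, 6.50, 3.58 and 10.03 in primary stavudine, 7.41, 7.17 and 13.2 in recurrent 17-DMAG and 13.6 and 5.696 in recurrent 17-DMAG plus stavudine tumors. Its difference was 0.21 (SE 0.44) with a 95% interval of -0.77 to 1.18. Mx1 and Oas2, antiviral effectors, differed by 0.35 (SE 0.36) and 0.52 (SE 0.59). The 32 genes had 19 of 32 higher and 13 lower on stavudine and a median of 0.06, with 0 at an unadjusted p under 0.05. In primary tumors 27 of 32 were higher (median 0.21) and in recurrent tumors 22 of 32 were lower (median -0.11). The list score ranged from 2.63 to 4.63 in primary untreated tumors alone, and the median over all tumors went from -0.19 without recurrent 17-DMAG plus stavudine replicate 1 to 0.52 without the 3 tumors rich in muscle RNA. It was also below 0 when primary untreated replicate 2 was left out (-0.15) or primary stavudine replicate 3 (-0.13). Of the 32 intervals, 9 lay within 1 log2 unit, and those of the other 23 genes reached past it.

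Of the NF-kB and TNF response, 30 of 32 listed genes were tested, with 9 of 30 higher and 21 lower and a median of -0.17. Nfkbia, the inhibitor IkB-alpha and a feedback target, differed by -0.20 (SE 0.19). With an unadjusted p under 0.05, 3 genes were lower and 0 higher, beside 1.93% and 1.46% of all genes. Nfkbiz, a nuclear IkB protein, was at 38.2, 54.9 and 39.7 CPM in primary untreated, 36.8, 36.1 and 35.5 in primary stavudine, 61.3, 48.1 and 35.6 in recurrent 17-DMAG and 34.9 and 30.6 in recurrent 17-DMAG plus stavudine tumors. It was lower on stavudine without overlap in both states, with a difference of -0.41 (SE 0.15) (edgeR adjusted p = 1.00). Sod2, the mitochondrial superoxide dismutase, and Junb, an AP-1 subunit, were at -0.24 (SE 0.09) and -0.62 (SE 0.26). The list score was 2.59, 2.46 and 2.49 in primary untreated, 2.46, 2.34 and 2.44 in primary stavudine, 3.94, 2.97 and 2.76 in recurrent 17-DMAG and 3.30 and 3.10 in recurrent 17-DMAG plus stavudine tumors, so that recurrent 17-DMAG replicate 1, the tumor with the highest leukocyte markers, was the highest. Without that tumor the median was 0.04, with 16 of 30 genes higher.

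Genes that silence or restrict retroelements showed no common direction. They had 13 of 25 higher and 12 lower, with a median of 0.00. Rb1, the retinoblastoma protein, was at 98.6, 60.997 and 61.6 CPM in primary untreated, 91.7, 106 and 108 in primary stavudine, 206, 133 and 130 in recurrent 17-DMAG and 398 and 188 in recurrent 17-DMAG plus stavudine tumors, a difference of 0.66 (SE 0.22). Apobec3, a cytidine deaminase that restricts retroviruses, differed by 0.32 (SE 0.13). Setdb1, a histone H3 lysine methyltransferase that silences endogenous retroviruses, was at 101, 109 and 104 CPM in primary untreated, 98.8, 88.6 and 95.7 in primary stavudine, 103, 99.99 and 98.96 in recurrent 17-DMAG and 94.02 and 88.1 in recurrent 17-DMAG plus stavudine tumors. It was lower on stavudine without overlap in both states, with a difference of -0.15 (SE 0.06). These 3 of the 25 genes had an unadjusted p under 0.05, beside 3.38% of all genes, and an edgeR adjusted p of 1.00.

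Heat shock genes were mostly higher on stavudine, by small amounts. They had 19 of 24 higher and 5 lower, with a median of 0.15. Those with an unadjusted p under 0.05 were 4, all higher, beside 1.46% of all genes, namely Hspb1, the HSP90 cochaperone Chordc1 at 0.31 (SE 0.11), the HSP40 protein Dnaja1 at 0.35 (SE 0.15) and the HSP110 family member Hspa4 at 0.39 (SE 0.17), each with an edgeR adjusted p of 1.00. Dnaja1 is on chromosome 4, whose genes were low in primary untreated replicates 2 and 3. It was at 92.4, 54.2 and 73.7 CPM in primary untreated tumors, and the part of the chromosome in its difference was not tested. The most inducible genes did not follow, with Hspa1a at -0.04, Hspa1b at 0.02 and Dnajb1 at -0.15. Hspa1a and Hspa1b are near-identical copies, so their reads cannot be assigned with certainty. In recurrent tumors, which had also met 17-DMAG, 19 of 24 were higher (median 0.23), and in primary tumors 14 of 24 (median 0.07). The median stayed between 0.08 and 0.23 under the 25 alternatives.

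The sequence before the start of Hspb1 and of Lurap1l is shown because Hspb1 led the heat shock genes and Lurap1l all genes. The sequences are from RefSeq on the plus strand of GRCm38.p6, chr5:135887669-135887918 for Hspb1 (250 bases) and chr4:80910436-80910635 for Lurap1l (200 bases), both ending before the first base of the gene as annotated. Capitals mark each match to GAANNTTC or TTCNNGAA, inverted pairs of the GAA unit to which HSF1 binds, and both motifs read the same on either strand, so a search of 1 strand covers both.
Hspb1: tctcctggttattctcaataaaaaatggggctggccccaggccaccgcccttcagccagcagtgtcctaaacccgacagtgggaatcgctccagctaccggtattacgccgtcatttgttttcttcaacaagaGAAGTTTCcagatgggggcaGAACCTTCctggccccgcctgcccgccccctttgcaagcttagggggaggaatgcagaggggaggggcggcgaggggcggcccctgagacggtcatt
Lurap1l: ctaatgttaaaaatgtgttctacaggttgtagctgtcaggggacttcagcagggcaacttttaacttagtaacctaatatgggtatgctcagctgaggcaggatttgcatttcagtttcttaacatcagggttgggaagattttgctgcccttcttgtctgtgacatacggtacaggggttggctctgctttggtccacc
The Hspb1 sequence holds 2 matches, which begin 117 and 97 bases before the start of the gene, and the Lurap1l sequence holds 0. Of 32851 RefSeq windows of 300 bases (250 before to 50 after a start), 15.1% hold a match. Of the 24 heat shock genes, 19 had a window, and 11 of the 19 held a match, beside 17.0% of 27025 genes. A match is a description of letters and not a binding site.

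**Figure D4:**
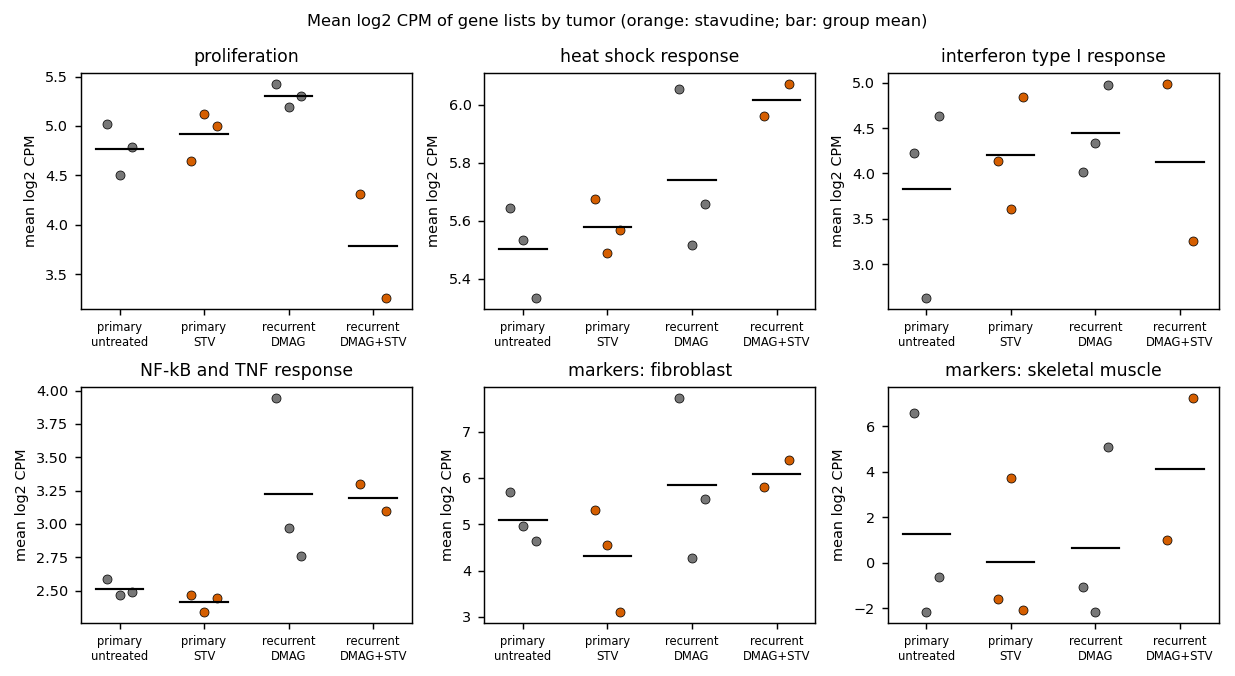
Mean log2 CPM (vertical axes, not starting at 0) of 6 gene lists by tumor group, with stavudine tumors in orange and the others in grey. Each point is a tumor and each bar the group mean. The recurrent stavudine pair has the lowest proliferation scores, 4.31 and 3.26, and for the other lists the stavudine tumors overlap the others within both states.

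The p53 targets had 17 of 24 higher and 7 lower, with a median of 0.10. Fas, a death receptor, differed by 0.66 (SE 0.29) and was the only one of them with an unadjusted p under 0.05, beside 3.38% of all genes. Cdkn1a, the cell cycle inhibitor p21, was at 6.75, 41.9 and 12.8 CPM in primary untreated, 4.26, 15.5 and 6.94 in primary stavudine, 51.5, 8.72 and 6.55 in recurrent 17-DMAG and 27.1 and 125 in recurrent 17-DMAG plus stavudine tumors, and its difference of 0.19 (SE 0.89) covered -1.20 in primary and 1.77 in recurrent tumors. Gdf15, a stress cytokine used as a marker of mitochondrial disease, stayed at or below 0.679 CPM in all 11 tumors and differed by -0.27 (SE 0.67).

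The integrated stress response had 8 of 24 higher and 16 lower, with a median of -0.15. Trib3, a pseudokinase induced by ATF4, was at 59.03, 113 and 84.9 CPM in primary untreated, 49.4, 45.7 and 54.4 in primary stavudine, 46.7, 74.02 and 47.1 in recurrent 17-DMAG and 44.9 and 18.1 in recurrent 17-DMAG plus stavudine tumors. It was lower on stavudine without overlap in both states, with a difference of -0.80 (SE 0.25) (edgeR adjusted p = 1.00). The serine synthesis enzymes Phgdh and Psat1 lay on opposite sides of 0, with Phgdh at -0.42 (SE 0.21) and Psat1 at 0.56 (SE 0.30).

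The pentose phosphate and NRF2 list had 11 of 22 genes higher and a median of -0.0015. Tkt, the transketolase of the non-oxidative branch, was at 201, 182 and 155 CPM in primary untreated, 140, 164 and 162 in primary stavudine, 180, 167 and 191 in recurrent 17-DMAG and 355 and 453 in recurrent 17-DMAG plus stavudine tumors. The recurrent stavudine pair stood above all other tumors. The difference was -0.21 in primary and 1.17 in recurrent tumors, the smallest p of all genes for the difference between states (edgeR adjusted p = 0.435, DESeq2 adjusted p = 2.2e-05). Without recurrent 17-DMAG plus stavudine replicate 1, which leaves 1 tumor in that group, the difference between states was 1.51 in place of 1.38. Lipid and cholesterol synthesis had 12 of 25 genes higher and a median of -0.01. Dhcr7, the last enzyme of cholesterol synthesis, was at -0.42 (SE 0.15) and the lipogenic factor Thrsp at 1.39 (SE 0.60). Both had an unadjusted p under 0.05, beside 3.38% of all genes. Thrsp was at 326 CPM in recurrent 17-DMAG plus stavudine replicate 2, and the other tumors held 12.9 to 78.2 CPM.

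Drug transport genes were tested for 13 of 16, with 5 of 13 higher and 8 lower and a median of -0.15. The efflux pump Abcb1b (P-glycoprotein) differed by 0.27 (SE 0.47) and Abcg2 by -0.68 (SE 0.42), and without recurrent 17-DMAG plus stavudine replicate 2 they differed by -0.41 and -0.36. Of the list, 0 had an unadjusted p under 0.05. In primary tumors 12 of 13 were lower (median -0.43) and in recurrent tumors 6 of 13 (median 0.17). The acute phase and epithelial inflammation list had 12 of 21 tested genes higher and a median of 0.05, which was -0.25 without recurrent 17-DMAG plus stavudine replicate 1, 0.33 without recurrent 17-DMAG replicate 1 and 0.60 without the 3 tumors with deviating chromosomes. Chil1, a chitinase-like protein, and Lrg1, an acute phase glycoprotein, differed by -0.63 and -0.36 in primary tumors and by 3.22 and 2.81 in recurrent tumors, against 1.18 (SE 0.79) and 1.14 (SE 0.70) over all. DESeq2 called the difference between states for both (adjusted p = 0.000392 and 0.0350), and edgeR for neither (0.435 and 0.471).

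**Figure D5:**
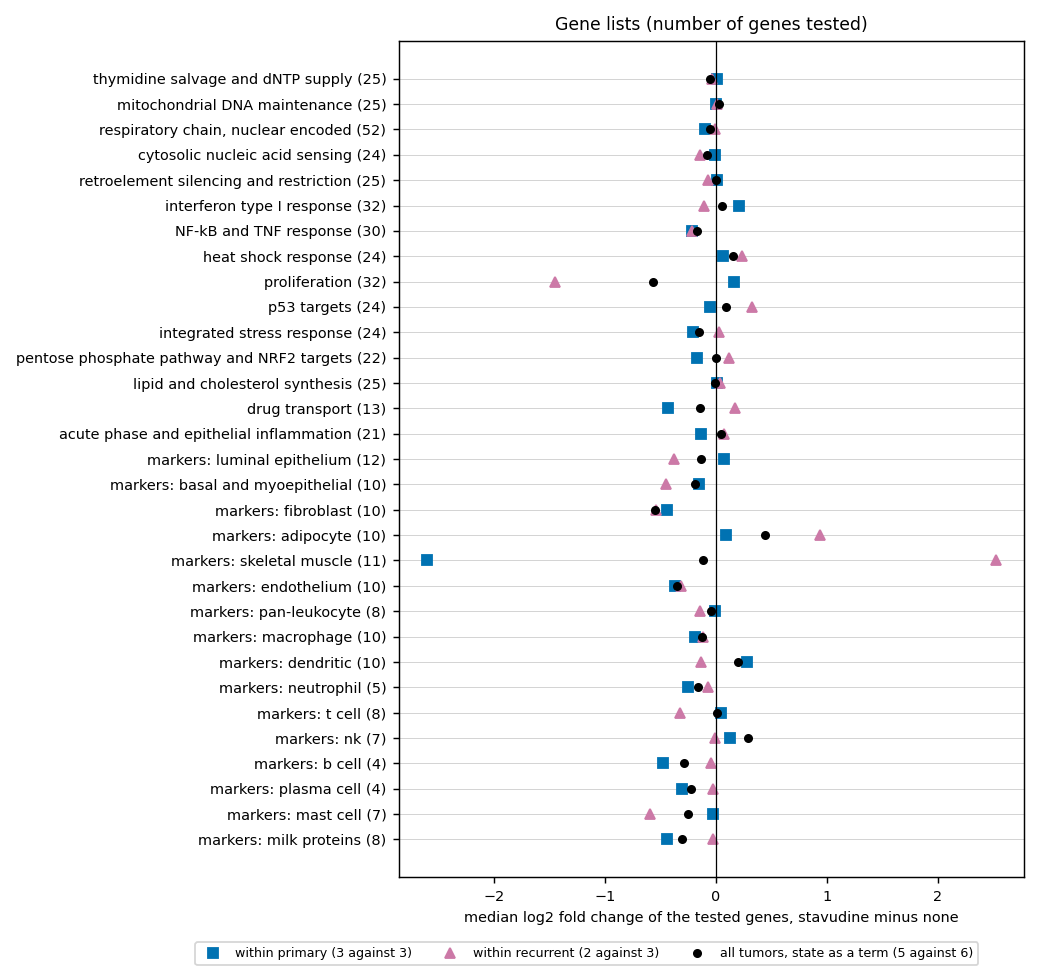
Median log2 fold change on stavudine (horizontal axis) of the tested genes of each list (vertical axis), within primary tumors (squares), within recurrent tumors (triangles) and over all tumors (circles). Proliferation (0.16 and -1.45) and skeletal muscle markers (-2.60 and 2.53) differ most between the states. Of the functional lists, the medians over all tumors lie between -0.17 and 0.15 except for proliferation at -0.57.

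Cell type markers were read to see whether the mixture of cells moved with the drug. Erbb2, the oncogene of the model, was at 10246, 20386 and 17136 CPM in primary untreated, 9573, 11429 and 9521 in primary stavudine, 3903, 8507 and 10864 in recurrent 17-DMAG and 13771 and 8162 in recurrent 17-DMAG plus stavudine tumors. Its difference was -0.13 (SE 0.33), and since the rat transgene can be counted at the mouse gene, the value mixes both. Erbb2 also overlaps Mien1 on the other strand. The 12 luminal markers had a median of -0.13, 0.07 in primary and -0.37 in recurrent tumors. Fibroblast markers were all lower over the 11 tumors, 10 of 10, with a median of -0.55 and 0 at an unadjusted p under 0.05. Col1a1, a chain of type I collagen, was at 215, 280 and 105 CPM in primary untreated, 145, 91.3 and 94.8 in primary stavudine, 1708, 109 and 289 in recurrent 17-DMAG and 484 and 595 in recurrent 17-DMAG plus stavudine tumors, and recurrent 17-DMAG replicate 1 was the highest. Without that tumor the fibroblast median was 0.17, with 9 of 10 markers higher. Endothelial markers had 9 of 10 lower and a median of -0.35, which was -0.02 without recurrent 17-DMAG replicate 1. Adipocyte markers had 8 of 10 higher and a median of 0.45, which ran from -0.07 without recurrent 17-DMAG plus stavudine replicate 2 to 1.23 without primary untreated replicate 1 and was -0.37 by limma voom with sample quality weights. Basal and myoepithelial markers had 6 of 10 lower and a median of -0.19, which ran from -0.43 without primary stavudine replicate 1 to 0.13 without recurrent 17-DMAG replicate 1. None of these lists had a gene at an unadjusted p under 0.05.

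The medians of the leukocyte marker lists lay between -0.29 and 0.29. Ptprc, which encodes CD45, was at 20.5, 19.3 and 22.8 CPM in primary untreated, 18.99, 26.8 and 25.4 in primary stavudine, 62.03, 23.9 and 24.1 in recurrent 17-DMAG and 34.8 and 31.2 in recurrent 17-DMAG plus stavudine tumors. Its difference was 0.04 (SE 0.25) with a 95% interval of -0.51 to 0.59. They were -0.05 for 8 pan-leukocyte markers, -0.13 for 10 macrophage markers, 0.20 for 10 dendritic markers and 0.01 for 8 T cell markers. The macrophage score of the primary stavudine tumors, 3.83, 4.05 and 3.77, lay below that of the primary untreated tumors, 4.34, 4.33 and 4.28, and in recurrent tumors the groups overlapped. Of the NK markers, 7 were tested with a median of 0.29, and the granzyme gene Gzma was the only leukocyte gene with an unadjusted p under 0.05, at 1.93 (SE 0.67) and levels of 0.0871 to 3.17 CPM. For neutrophils, B cells, plasma cells and mast cells 5, 4, 4 and 7 markers passed the filter, and their medians were -0.17, -0.29, -0.22 and -0.25.

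Tissue carried along with the tumor did not follow the drug in 1 direction. Skeletal muscle markers had a median of -0.12, which covered -2.60 in primary and 2.53 in recurrent tumors, with 11 of 11 markers lower in the former and higher in the latter. Milk protein genes had 6 of 8 lower, a median of -0.30, and a range of -2.81 to 0.93 between genes. Of 6 erythroid markers Alas2 alone was tested, at -0.17 (SE 0.14), and of 6 skin markers Lor and Krt10, at 0.18 (SE 0.59) and -0.05 (SE 0.31). The mean log2 CPM of the muscle list was 6.56, -2.14 and -0.63 in primary untreated, -1.59, 3.72 and -2.08 in primary stavudine, -1.06, -2.15 and 5.10 in recurrent 17-DMAG and 0.99 and 7.24 in recurrent 17-DMAG plus stavudine tumors.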

How the data were processed

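RNA of 11 mammary tumors and 2 mammary glands, 1 mouse each, was depleted of rRNA, made into dUTP libraries and sequenced. Per the labels and the study's methods, reads were demultiplexed with bcl2fastq 2.20, aligned to the mouse genome (mm10, GRCm38) with STAR and counted per gene with featureCounts (Subread 1.6.2). The deposited values are raw read counts for 24421 genes in 13 libraries. The strand setting and the handling of reads with several matches are not given in the sources used here, and transcripts encoded by mitochondrial DNA were not analysed here.

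Of the 24421 genes, 20548 had a count in any tumor and 16870 passed edgeR's filterByExpr over the 4 tumor groups. R 4.3.3 and edgeR 4.0.16 (TMM factors, robust quasi-likelihood fits, Benjamini-Hochberg adjustment over all genes tested, calls at an adjusted p under 0.05) tested stavudine in a model of tumor state plus stavudine. A model of the 4 group means gave the effect within each state and their difference. CPM are counts scaled by the TMM-corrected library total, log2 CPM carry a prior count of 2, and the mean log2 CPM over a list is its score. Groups were called without overlap where the lowest CPM on 1 side lay above the highest on the other. The p-values measure the spread between tumors of different mice.

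Named genes were the 10 higher and 10 lower ones with the smallest p among genes whose mean log2 CPM was not below 0, a fixed list of 20 genes for the drug's activation, its targets and the tumor, and up to 4 members of each gene list with the smallest p. Further members of lists, such as Hspa1a and the Mcm genes, were named after their values were seen. The members and lists were chosen with earlier results of these data known. Alternatives were DESeq2 1.42.0, limma 3.58.1 voom with and without sample quality weights, RLE factors, other filters, non-robust dispersion, a replicate block, no state term, equal weight of the states, leaving out gene lists, 3 tumors with muscle RNA or each tumor in turn. Chosen after seeing the data were DESeq2 without each tumor, chromosome medians as offsets, and leaving out the tumors with a deviating chromosome.

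Positions are from GENCODE M21 on GRCm38, and 24223 of the 24421 symbols (99.2%) were found there or through RefSeq names. Libraries of a group differed beyond sampling noise (chi-square per degree of freedom 45.1 to 353). Replicate numbers are shared by the groups, and the study's methods name no pairing. The deviations of same-numbered tumors correlated at -0.295 to 0.222, and 2 of 11 tumors correlated best with their own number. This check gave no sign of pairing. It cannot exclude pairing, because deviations from the mean of so few tumors depend on each other. Fits were tested on simulated data. At these totals 3 counts equal 0.0618 to 0.0733 CPM, a limit that covers counting error only.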

Additional observations from a re-analysis of the deposited data

Results flagged for a closer look

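Each value below is the highest or lowest of the 5 stavudine tumors or of the 6 others, with a gap to its neighbor past Dixon's limit. Of 150 groups of values, 15 stood out, and they fell on 6 tumors. The limit gives about 1 in 20 for normal values of 1 population. These groups hold primary and recurrent tumors together, and some were chosen after the data were seen, so that rate does not apply here. Recurrent 17-DMAG replicate 1 accounts for 6 of them. Ptprc, the pan-leukocyte gene of CD45, was at 62.0 CPM there against 19.3 to 24.1 CPM in the other 5 tumors without stavudine. The mean log2 CPM of its pan-leukocyte markers was 5.32, of macrophage markers 5.58, of neutrophil markers -0.47, of the NF-kB and TNF response 3.94 and of the acute phase list 5.15, each above the other 5.

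Among the 6 tumors without stavudine, chromosome 4 genes had a median deviation of -0.76 in primary untreated replicate 2. The efflux pump gene Abcg2 was at 228 CPM in the same tumor, against 76.5 to 126 CPM. Recurrent 17-DMAG replicate 3 had 12.8 CPM of Mid1, against 32.0 to 40.6 CPM, and 3.88 CPM of Cck, against 0.637 to 1.64 CPM. The erythroid score of primary untreated replicate 3 was 5.13, and it rests on Alas2 alone.

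Among the 5 stavudine tumors, recurrent 17-DMAG plus stavudine replicate 2 had 125 CPM of Cdkn1a (4.26 to 27.1 CPM in the other 4) and 9.04 CPM of Abcb1b (1.48 to 2.99 CPM). Recurrent 17-DMAG plus stavudine replicate 1 had 38.4 CPM of Tmem173 (17.8 to 22.7 CPM) and a milk protein score of 8.92 (5.26 to 6.09).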

How the results depend on the processing

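The number of genes called for stavudine stayed at 0 under every alternative run except DESeq2, which called 6, and genes at an unadjusted p under 0.05 numbered 404 to 864. For the difference between states DESeq2 called 189 genes and the other tools 0. Leaving out 1 tumor at a time gave 0 to 77 genes by edgeR for that difference (77 without recurrent 17-DMAG plus stavudine replicate 1, and 1 without recurrent 17-DMAG replicate 1). It gave 1 to 52 genes by DESeq2 for stavudine, a check chosen after seeing the data. The counts furthest from 6 were 52 without primary untreated replicate 1, 28 without recurrent 17-DMAG plus stavudine replicate 1, 24 without recurrent 17-DMAG replicate 1, 15 without primary stavudine replicate 1, and 1 each without primary untreated replicate 3 and primary stavudine replicate 2. The cause was not tested. With the replicate number as a block, edgeR called 0 genes for stavudine (413 at an unadjusted p under 0.05) and 0 for the difference between states (1109), and the block changed no call. No sign changed among the 20 genes with the smallest p. Among values of named genes 938 kept their sign and their side of the threshold, whatever their size. Another 55 changed sign without a call, and 6 passed the threshold, all by DESeq2. Of 33 list medians, 5 kept their sign under every alternative (thymidine salvage, respiratory chain, heat shock, proliferation and dendritic markers). Over all settings 815 medians stayed within the spread and 7 moved, among them proliferation at -0.20 without the 3 tumors with muscle RNA and -0.21 without recurrent 17-DMAG plus stavudine replicate 2. At 39921388 to 49484412 counts a tumor, depth limits what can be said of genes near 3 counts, such as the B cell markers Ms4a1 and Pax5. The share of mitochondrially encoded counts, planned as a further comparison, was not analysed here.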

Other observations

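Genes of cytoplasmic ribosomal proteins, a group noticed in the results and given without a test, were mostly higher on stavudine by small amounts. Of 79 tested, 72 were higher, with a median log2 difference of 0.13 beside -0.02 over all genes, 0.15 within primary and 0.10 within recurrent tumors. An unadjusted p under 0.05 was reached by 11 of the 79, all higher, beside 1.46% of all genes, and edgeR called 0. Without overlap in both states, 7 were higher and 0 lower, beside 0.326% and 0.379% of all genes, and 3 of the 7 lie on chromosome 4, which holds 5 of the 79.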
